A study of Mus musculus with 2 samples.

Results

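The genes described here encode the cytosolic translation initiation and elongation factors of the mouse, with their inhibitors, their kinase and their methyltransferases. They were chosen by name: every protein-coding gene on an autosome of GRCm38 whose symbol begins with Eif1 to Eif6, Eef1 or Eef2, without the eIF2 alpha kinases. This gave 60 genes of 43346 gene rows, and of 20337 protein-coding autosomal genes. The genes for eIF2 gamma and for Eif1ax lie on the sex chromosomes and are outside this choice, and Eef1akmt4 was not analysed here. All values come from 1 pancreas, taken at 10 weeks of age from an adult female of the inbred mouse strain C57BL/6J. Polyadenylated RNA of this 1 tissue sample was made into 2 technical replicate libraries. Replicate 2 dates from May 2015, and for replicate 1 the sources used here give no date. The series holds 1 group and no treatment, so the only contrast is that of replicate 2 over replicate 1. Since the labels name them technical replicates, a difference between them is read as technical, though its source was not tested. The p-values measure counting error between these libraries only.

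Translation in the cytosol begins when eIF2, carrying the initiator tRNA, binds the small ribosomal subunit together with eIF1, eIF1A, eIF3 and eIF5. The cap-binding complex of eIF4E, the scaffold eIF4G and the helicase eIF4A brings in the mRNA, the start codon is selected, and eIF5B joins the large subunit. During elongation eEF1A delivers aminoacyl-tRNAs, eEF1B recharges eEF1A with GTP and eEF2 moves the ribosome along by a codon. The exocrine pancreas is among the most active protein-making tissues of the adult mammal, and in rodent acinar cells the hormone cholecystokinin raises protein synthesis partly through mTORC1, which phosphorylates the eIF4E-binding proteins. Phosphorylation and protein levels were not measured in these libraries.

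Replicate 2 held 9797569 expected counts in all, and replicate 1 held 9441559, and 29224 and 37253 of them fell on the 60 genes. The libraries differed in composition. The gene row Gm42418 took 42.8% of the counts of replicate 2 and 16.9% of those of replicate 1, and the mitochondrial genome took 3.17% and 17.6%. Which RNA the reads assigned to Gm42418 came from was not tested. The markers of the acinar cell, which makes the digestive enzymes, were all present, with 7 of 7 at 1 TPM or more in both libraries and a sum of 93632 TPM for replicate 2 and 81142 TPM for replicate 1. TPM, the deposited transcript abundance, is corrected for transcript length and was used wherever levels of different genes are compared. Islet markers summed to 23239 and 21528 TPM, but their members did not move together between the libraries: the glucagon gene Gcg had 10458 counts in replicate 2 and 33243 in replicate 1, Isl1 had 55 and 162, and Pcsk1n had 170 and 0. Erythroid markers summed to 3287 and 1455 TPM, and endothelial markers to 185 and 201 TPM. Members of the acinar and endothelial lists did not move together either. Acinar Cela1 had 161902 counts in replicate 2 and 100112 in replicate 1, but Cpa1 had 130551 and 222486. Endothelial Plvap had 1776 and 1595 counts, but Pecam1 had 969 and 1897. In the erythroid list the globin genes Hbb-bs, Hbb-bt, Hba-a1 and Hba-a2 were all higher in replicate 2. Their log2 ratios of scaled counts lay between 1.35 and 1.65, and Hbb-bs had 4980 and 2768 counts. Erythroid Alas2, with 77 and 108 counts, had a log2 ratio of 0.01 on that scale. These differences lie between technical replicates of 1 tissue sample and are not read as differences in cells. For the levels themselves, the number of cells of a type and the RNA per cell cannot be told apart in bulk tissue.

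Transcripts of nearly all of the factors were detected in this pancreas, and Eef1a1 led by a wide margin. Of the 60 genes, 56 reached 1 TPM in both libraries, which is 93.3%, against 47.4% of protein-coding autosomal genes. The other 4 were Eef1a2, Eif5a2, Eif4e1b and Eif4ebp3. Both libraries held 31 genes at 10 TPM or more, and 3 genes, Eef1a1, Eif1 and Eef1b2, at 100 TPM or more. On protein-coding transcripts alone, of these 3 only Eef1a1 stayed at 100 TPM or more. Together the 60 genes held 0.277% ± 0.00274 of the summed TPM (SD, n = 2 technical libraries). Their median level was 11.2 TPM in replicate 2 and 13.2 TPM in replicate 1. The medians of 20 aminoacyl-tRNA synthetase genes were 9.96 and 10.1 TPM, and those of 84 cytosolic ribosomal protein genes 256 and 222 TPM. A core of 6 elongation factor genes, encoding eEF1A, eEF1B and eEF2, summed to 1742 TPM in replicate 2 and 1591 TPM in replicate 1. The 40 initiation factor genes, without Eif5a, Eif5a2, the eIF4E-binding proteins, Eif4enif1, Eif1ad and Eif4a3, summed to 864 and 1034 TPM, so that the ratio of elongation to initiation transcripts was 2.02 in replicate 2 and 1.54 in replicate 1. This order rested on Eef1a1: without it the elongation genes summed to 436 TPM in replicate 2 and 397 TPM in replicate 1, and the ratio was 0.505 and 0.384, below 1 in both libraries.

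**Figure D1:**
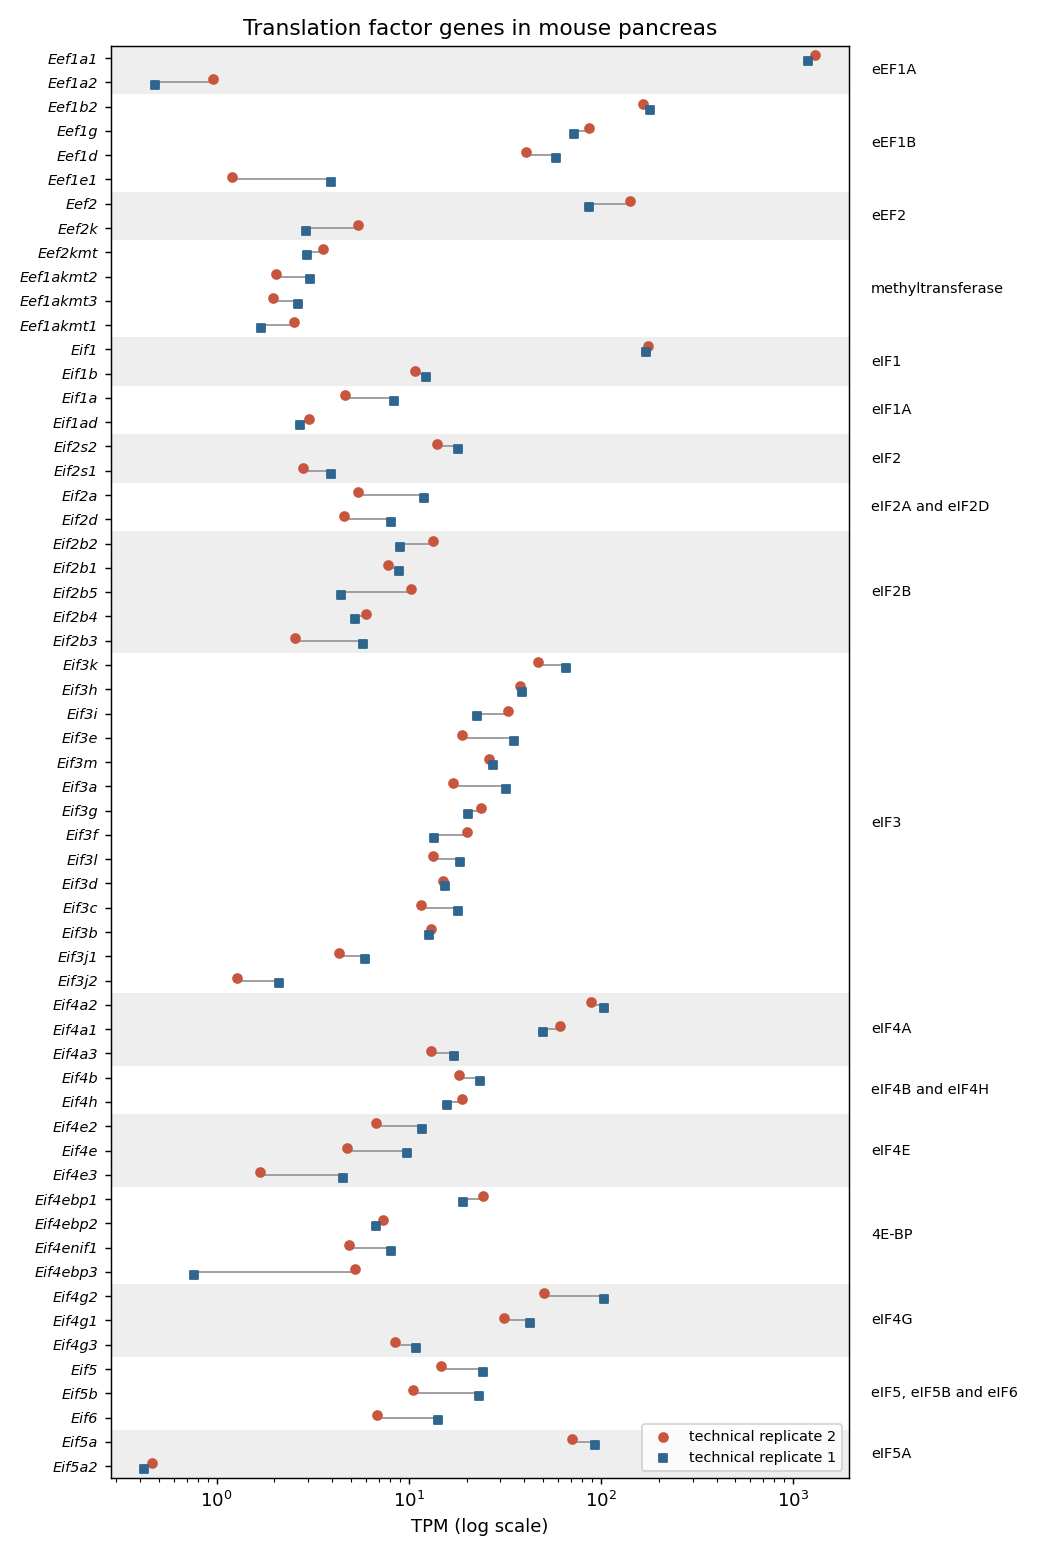
TPM on a log scale of the 59 genes with counts, grouped by complex (grey and white bands, named at the right) and ordered within it by mean level; circles are technical replicate 2 and squares technical replicate 1, joined by a line. Eef1a1 lies near 1250 TPM in both libraries, while its relative Eef1a2 lies below 1 TPM in both.

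Eef1a1 (chromosome 9, 78478449 to 78489151), the GTPase that carries aminoacyl-tRNA to the ribosome, had 1306 TPM in replicate 2 and 1193 TPM in replicate 1, from 11270 and 13854 counts. It held 47.4% and 42.8% of the TPM of all 60 genes and lay above every other factor in both libraries. The next gene was Eif1 (chromosome 11, 100319885 to 100322096), which guards start codon selection, at 176 and 171 TPM. Eef1b2 (chromosome 1), a nucleotide exchange subunit of eEF1B, followed at 166 and 179 TPM, Eef2 (chromosome 10) at 142 and 86.6 TPM, and the helicase gene Eif4a2 (chromosome 16) at 89.2 and 104 TPM. By mean level these were the top 5, and the order of Eif1 and Eef1b2 differed between the libraries. The ranks below Eef1a1 depended on noncoding transcripts. On protein-coding transcripts alone Eif1 had 82.8 and 41.6 TPM and Eef1b2 95.6 and 73.6 TPM, both below Eef2 in each library. In the order of all genes by mean TPM, the ranges of 52 of the 59 neighbouring pairs overlapped, so that most neighbours did not differ beyond the spread of the libraries.

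The start regions of these 5 genes are shown because they carry the highest mean levels over all transcripts. Mammalian mRNAs of the translation machinery, Eef1a1 and Eef2 among them, are known for a terminal oligopyrimidine start, a cytosine followed by a run of pyrimidines, through which mTORC1 and LARP1 set their use. Each line gives 60 bases before and 30 bases from the annotated RefSeq start (build GRCm38.p6), read 5′ to 3′ along the gene. Capitals mark a cytosine with 4 following pyrimidines that begins within 10 bases of that start, or 1 of 3 motifs searched on either strand, namely TATAAA with its variant TATATAA and, as the third, CCGGAAG. Positions count from 1 at the annotated start, with -1 the base before it. The windows are chr9:78481695-78481784 (minus strand) for Eef1a1, chr11:100319889-100319978 (plus) for Eif1, chr1:63176771-63176860 (plus) for Eef1b2, chr10:81176571-81176660 (plus) for Eef2 and chr16:23107408-23107497 (plus) for Eif4a2.
Eef1a1: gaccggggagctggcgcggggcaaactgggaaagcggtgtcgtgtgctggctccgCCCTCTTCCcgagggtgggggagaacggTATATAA
Eif1: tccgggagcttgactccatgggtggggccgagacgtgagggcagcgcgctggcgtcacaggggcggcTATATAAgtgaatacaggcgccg
Eef1b2: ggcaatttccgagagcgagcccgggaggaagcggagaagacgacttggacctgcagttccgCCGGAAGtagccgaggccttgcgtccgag
Eef2: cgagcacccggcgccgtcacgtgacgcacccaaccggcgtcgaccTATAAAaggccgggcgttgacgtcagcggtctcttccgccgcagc
Eif4a2: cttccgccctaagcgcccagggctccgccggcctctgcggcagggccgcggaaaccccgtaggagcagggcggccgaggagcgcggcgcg

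TATATAA began at position 24 in Eef1a1 and at position 8 in Eif1, and TATAAA at position -15 in Eef2. A TATA box usually lies upstream of a start, and where transcription begins in this tissue was not measured by the tables used here. The RefSeq table held 58 windows of 300 bases (250 before, 50 after the start) for 44 of the 60 genes. Exactly at the annotated start, 1 of these 58 windows (1.72%) had the cytosine and 4 pyrimidines, that of Eif3f, against 2.51% of all 32851 windows in the table. Within 10 bases on either side the count was 16 of 58 (27.6%), against 30.7% of all windows. A run further from the annotated start, such as ctcttcc in the Eef2 line, was neither counted nor marked. In Eef1a1 the marked run lies upstream of TATATAA. These counts depend on where starts are annotated, so they do not show which of the mRNAs begin with such a run. TATAAA was found in 4 windows (6.90%, against 13.6% of all windows) and TATATAA in 2 (3.45%, against 3.24%). CCGGAAG, the core recognised by ETS family factors, was found in 18 windows of 15 genes (31.0%), against 8.86% of all windows. The TATA motifs and this one were chosen after seeing the sequences, so their shares are descriptions and no evidence of enrichment. The 15 genes were Eef1b2, Eif1ad, Eif1b, Eif2b2, Eif2b4, Eif3c, Eif3d, Eif3g, Eif3l, Eif3m, Eif4e2, Eif4ebp2, Eif4enif1, Eif5a and Eif5a2. In Eif2b4 it began at the same place as in Eef1b2, position 2. No test was made on these shares, windows of 1 gene overlap, and a match is a run of letters and no shown binding site.

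The elongation factors showed 1 dominant form of eEF1A. Eef1a2, whose product replaces eEF1A1 in adult skeletal muscle and neurons, had 0.960 TPM in replicate 2 and 0.480 TPM in replicate 1, from 14 and 8 counts. The TPM ratio of Eef1a1 to Eef1a2 within a library was 1360 (exact 95% interval 810 to 2489) for replicate 2 and 2486 (1262 to 5760) for replicate 1, and the intervals overlapped. On protein-coding transcripts alone, an alternative chosen after seeing the data, the ratio was 836 and 1911. Skeletal muscle markers were at the floor, with 0 of 5 at 1 TPM in both libraries, a sum of 0.620 TPM for replicate 2 and 2.03 TPM for replicate 1, and Myh4 at 0. Neuronal markers summed to 8.71 and 18.9 TPM, with 3 of 5 at 1 TPM or more in both libraries. The highest was Snap25, at 4.14 and 10.8 TPM, and Rbfox3 was at 0 in both libraries.

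Of the exchange complex eEF1B, Eef1b2 stood highest, the scaffold subunit gene Eef1g (chromosome 19) had 86.2 TPM in replicate 2 and 72.4 TPM in replicate 1, and Eef1d (chromosome 15), the second exchange subunit, had 40.8 and 58.6 TPM. The order Eef1b2, Eef1g, Eef1d was the same in both libraries. Eef1e1, which despite its name is a scaffold of the multisynthetase complex, had 1.21 and 3.95 TPM from 8 and 30 counts.

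Eef2 (81176631 to 81182498 on chromosome 10) encodes the translocase, and its mRNA was among those that differed most between the libraries, with 3150 counts in replicate 2 and 2220 counts in replicate 1. Eef2k, whose kinase inactivates eEF2, was far lower, at 5.43 and 2.92 TPM. The 4 methyltransferase genes, Eef1akmt1, Eef1akmt2 and Eef1akmt3 for eEF1A and Eef2kmt for eEF2, lay between 1.97 and 3.60 TPM in replicate 2 and between 1.70 and 3.07 TPM in replicate 1. Eif5a (chromosome 11), the only known protein family with the amino acid hypusine and a helper of elongation at difficult sequences, had 70.3 and 93.5 TPM. Its relative Eif5a2 had 0.460 and 0.420 TPM, and the ratio of Eif5a to Eif5a2 was 153 (94.6 to 264) in replicate 2 and 223 (140 to 377) in replicate 1.

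At the start of initiation, Eif1 stood 16.4 times (12.6 to 21.5) above its paralogue Eif1b in replicate 2 and 13.9 times (11.1 to 17.8) above it in replicate 1. On protein-coding transcripts alone the ratio was 7.69 and 3.39. Eif1b itself had 10.8 and 12.3 TPM. Eif1a, whose product keeps the small subunit open for scanning, had 4.68 and 8.38 TPM, and Eif1ad, which carries an eIF1A-like domain, 3.04 and 2.73 TPM. The autosomal subunits of eIF2 were unequal. Eif2s1, the alpha subunit whose phosphorylation shuts down general initiation, had 2.82 TPM in replicate 2 and 3.95 TPM in replicate 1, while the beta subunit gene Eif2s2 had 14.1 and 18.0 TPM. The ratio of Eif2s1 to Eif2s2 was 0.200 (0.151 to 0.263) in replicate 2 and 0.220 (0.176 to 0.272) in replicate 1. These subunits act in equal numbers in the protein complex, whose level was not measured. Eif2a and Eif2d, which encode alternative factors for the initiator tRNA and are not parts of eIF2, had 5.44 and 4.60 TPM in replicate 2 and 11.98 and 8.11 TPM in replicate 1.

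The 5 subunit genes of eIF2B, the exchange factor that recharges eIF2 with GTP, lay between 2.56 and 13.3 TPM in replicate 2 and between 4.43 and 9.05 TPM in replicate 1. Eif2b2, the beta subunit gene, was highest in both libraries, at 13.3 and 9.05 TPM. This rank was lost on protein-coding transcripts, where Eif2b2 had 2.90 and 5.60 TPM, against 7.83 and 8.85 TPM for Eif2b1 and 10.25 and 4.43 TPM for Eif2b5. The lowest was Eif2b3 (gamma subunit) in replicate 2, at 2.56 against 5.76 TPM in replicate 1. In replicate 1 the lowest was Eif2b5, the catalytic epsilon subunit, which had 10.2 TPM in replicate 2 and 4.43 TPM in replicate 1. Eif2b1 (alpha) had 7.82 and 8.85 TPM and Eif2b4 (delta) 6.00 and 5.26 TPM. The order of the 5 subunits thus changed between the libraries, and the correlation of their log2 TPM across these 5 genes was 0.31.

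The 12 subunit genes of eIF3 other than the loosely bound eIF3j ranged between 11.6 and 46.9 TPM in replicate 2, 4.05-fold from Eif3c to Eif3k, and between 12.8 and 65.5 TPM in replicate 1, 5.11-fold from Eif3b to Eif3k. Eif3k, a small peripheral subunit, was highest in both libraries, at 46.9 and 65.5 TPM, and Eif3h followed at 37.8 and 39.1 TPM. The core subunit genes Eif3a, Eif3b and Eif3c had 17.1, 13.1 and 11.6 TPM in replicate 2 and 32.1, 12.8 and 18.1 TPM in replicate 1. The complex is built around these core subunits, and 2 of the 3 were lower in replicate 2 than in replicate 1. Eif3i and Eif3g, which bind Eif3b, had 33.0 and 23.8 TPM in replicate 2 and 22.6 and 20.3 TPM in replicate 1. Eif3e had 19.0 and 35.2 TPM, Eif3f 20.03 and 13.5 TPM, and Eif3m 26.1 and 27.6 TPM. Eif3d, whose product can itself bind caps, had 15.04 and 15.5 TPM, and Eif3l 13.4 and 18.5 TPM. Across these 12 genes the log2 TPM of the libraries correlated with r = 0.72. Eif3j1 had 4.36 and 5.89 TPM and its near copy Eif3j2 1.27 and 2.10 TPM. The division of reads between these copies was uncertain, since the deposited posterior SD of each count was 7.59 in replicate 2 and 8.95 in replicate 1, on expected counts of 172.75 and 270.28 for Eif3j1 and 21.25 and 40.72 for Eif3j2.

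In the cap-binding complex the helicase gene Eif4a2 had the highest mean level. Eif4a2 had 89.2 TPM in replicate 2 and 104 TPM in replicate 1, and Eif4a1 (chromosome 11) 61.4 and 50.1 TPM. The ratio of Eif4a1 to Eif4a2 was 0.688 in replicate 2 (0.623 to 0.760) and 0.484 in replicate 1 (0.442 to 0.529), so Eif4a2 led in both libraries and the intervals did not overlap. Eif4a3, a helicase of the exon junction complex and not of initiation, had 13.1 and 17.2 TPM. The helicase cofactor genes Eif4b and Eif4h had 18.3 and 19.0 TPM in replicate 2 and 23.6 and 15.8 TPM in replicate 1. Their ratio, Eif4h to Eif4b, was 1.04 (0.902 to 1.20) in replicate 2 and 0.672 (0.587 to 0.767) in replicate 1, the only one of 13 ratios whose order changed between the libraries.

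Among the scaffolds, Eif4g2 (chromosome 7) came first. It encodes DAP5, which lacks the site that holds eIF4E, and had 50.5 TPM in replicate 2 and 103.5 TPM in replicate 1. Eif4g1 (chromosome 16), the main scaffold, had 31.1 and 42.5 TPM, and Eif4g3 8.45 and 10.9 TPM. The ratio of Eif4g2 to Eif4g1 was 1.62 (1.48 to 1.78) in replicate 2 and 2.43 (2.24 to 2.64) in replicate 1. With protein-coding transcripts alone the ratio was 3.32 and 2.17. Eif4g1 stood 3.68 times above Eif4g3 in replicate 2 (3.20 to 4.25) and 3.90 times in replicate 1 (3.51 to 4.35), or 2.07 and 2.32 times on protein-coding transcripts.

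Transcripts of the cap-binding proteins were at low levels. Eif4e had 4.77 TPM in replicate 2 and 9.81 TPM in replicate 1. Eif4e2, whose product 4EHP binds caps without recruiting eIF4G and represses translation, had 6.76 and 11.7 TPM, and Eif4e3 1.68 and 4.57 TPM. The ratio of Eif4e to Eif4e2 was 0.706 (0.524 to 0.951) in replicate 2 and 0.837 (0.674 to 1.04) in replicate 1. Eif4e1b, a form of oocytes, had 0 counts in both libraries, which allows up to 3 counts, or 0.306 CPM for replicate 2 and 0.318 CPM for replicate 1.

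The inhibitor gene Eif4ebp1 was more abundant than the gene of its target. Eif4ebp1 had 24.4 TPM in replicate 2 and 19.2 TPM in replicate 1, and the ratio of Eif4ebp1 to Eif4e was 5.11 (3.94 to 6.66) in replicate 2 and 1.95 (1.57 to 2.42) in replicate 1. The intervals lay apart, so counting error does not cover the difference between the libraries, but the ratio was above 1 in both. Eif4ebp2, a second inhibitor, had 7.35 and 6.77 TPM, and the ratio of Eif4ebp1 to Eif4ebp2 was 3.32 (2.53 to 4.36) and 2.83 (2.16 to 3.71). Eif4ebp3, the third, had 5.27 and 0.760 TPM from expected counts of 23.46 and 3.84, with posterior SDs of 4.71 and 4.43. Eif4enif1 encodes 4E-T, which carries eIF4E into the nucleus and into processing bodies, and had 4.89 and 8.05 TPM.

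**Figure D2:**
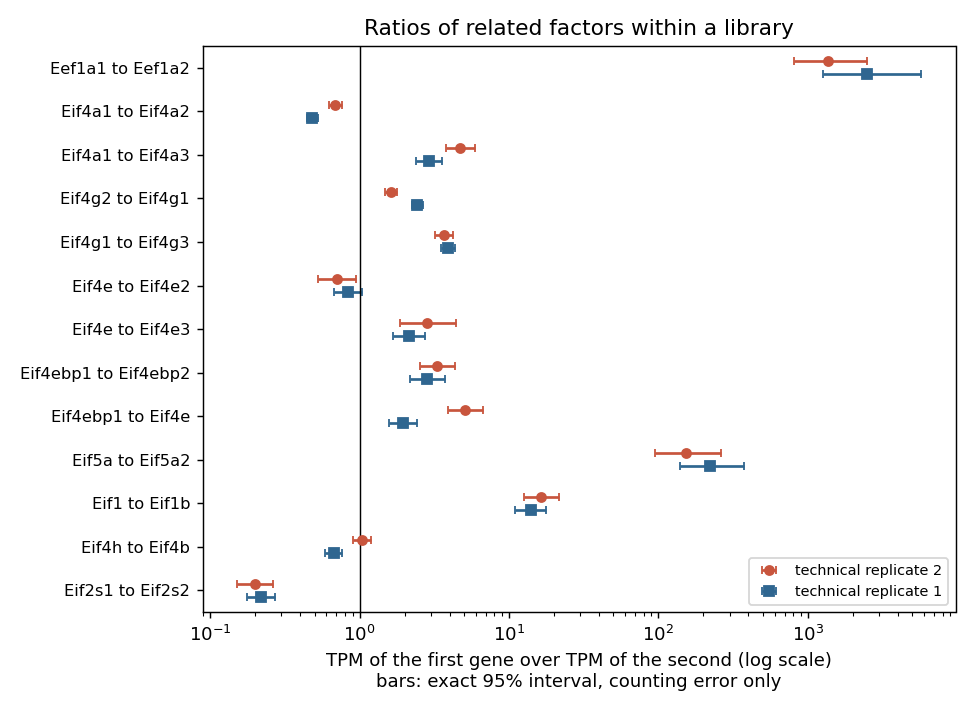
TPM of the first-named gene over TPM of the second on a log scale, for 13 gene pairs within each library; circles above are technical replicate 2, squares below technical replicate 1, and bars are exact 95% intervals from the counts. Of the 13 pairs, 12 have the same order in both libraries, and Eif4h to Eif4b, at 1.04 and 0.672, does not.

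The factors of the last initiation steps lay in the middle of the range. Eif5, whose product makes eIF2 hydrolyse its GTP, had 14.8 TPM in replicate 2 and 24.2 TPM in replicate 1. Eif5b, the GTPase of subunit joining, had 10.6 and 23.1 TPM, and Eif6, which holds the large subunit apart until it is mature, 6.80 and 14.3 TPM. All 3 were lower in TPM in replicate 2, while in TMM-scaled counts Eif6 was higher there (log2 ratio 0.69).

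The contrast of replicate 2 over replicate 1 asks how far levels of these genes can be read from 1 library. Counts were scaled by TMM, tested by an exact binomial test with Benjamini-Hochberg adjustment over 12452 genes, and called below an adjusted p of 0.05 with a log2 ratio of at least 1 in size. Of the 59 factor genes tested, 2 were called higher in replicate 2 (3.39%) and 2 lower (3.39%), against 8.69% of all genes tested called higher and 3.76% called lower. The median log2 ratio was 0.10 over the 59 genes and 0.01 over all genes, with 32 of the 59 above 0 and 27 below. Their quartiles were -0.21 and 0.43, against -0.39 and 0.47 for all genes. With the size of the difference left aside, 31 of the 59 passed the 0.05 threshold of this test, 18 with a positive and 13 with a negative log2 ratio. That is 52.5% of the factor genes, against 35.9% of all genes tested. The gap depended on the genes and the test used. Without a filter the shares were 45.76% and 24.81%. Among genes averaging 50 counts or more, 49 factor genes and 7729 in all, they were 57.14% and 45.80%. When edgeR was run at a dispersion of 0.01, they were 16.95% and 16.25%. The part of count level in the gap was not tested, so it is not read as a trait of the factors.

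The called genes were mostly of low count. Eif4ebp3, with 23 counts in replicate 2 and 4 in replicate 1, reached a log2 ratio of 2.88 (95% interval 1.47 to 5.02, adjusted p 3.58e-05 in the exact binomial test). The interval and p leave out the uncertainty of its read assignment (posterior SDs of 4.71 and 4.43 counts). On posterior mean counts the Eif4ebp3 ratio was 2.15. Eef2, with 3150 and 2220 counts, had a log2 ratio of 1.00 (0.93 to 1.08, adjusted p 9.34e-140), at the threshold. Eif4e3, with 30 and 94 counts, had a log2 ratio of -1.13 (-1.79 to -0.54, adjusted p 0.000472), and Eef1e1, with 8 and 30 counts, one of -1.34 (-2.74 to -0.25, adjusted p 0.0372). Of these 4, only Eif4ebp3 was still called after removal of a smooth trend on GC content and length, when Eef2 had 0.54, Eif4e3 -0.94 and Eef1e1 -1.11. With library totals in place of TMM, which moved every log2 ratio by -0.55, 1 of the 59 genes was called higher and 10 lower, against 2.75% and 20.9% of all genes tested.

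**Figure D3:**
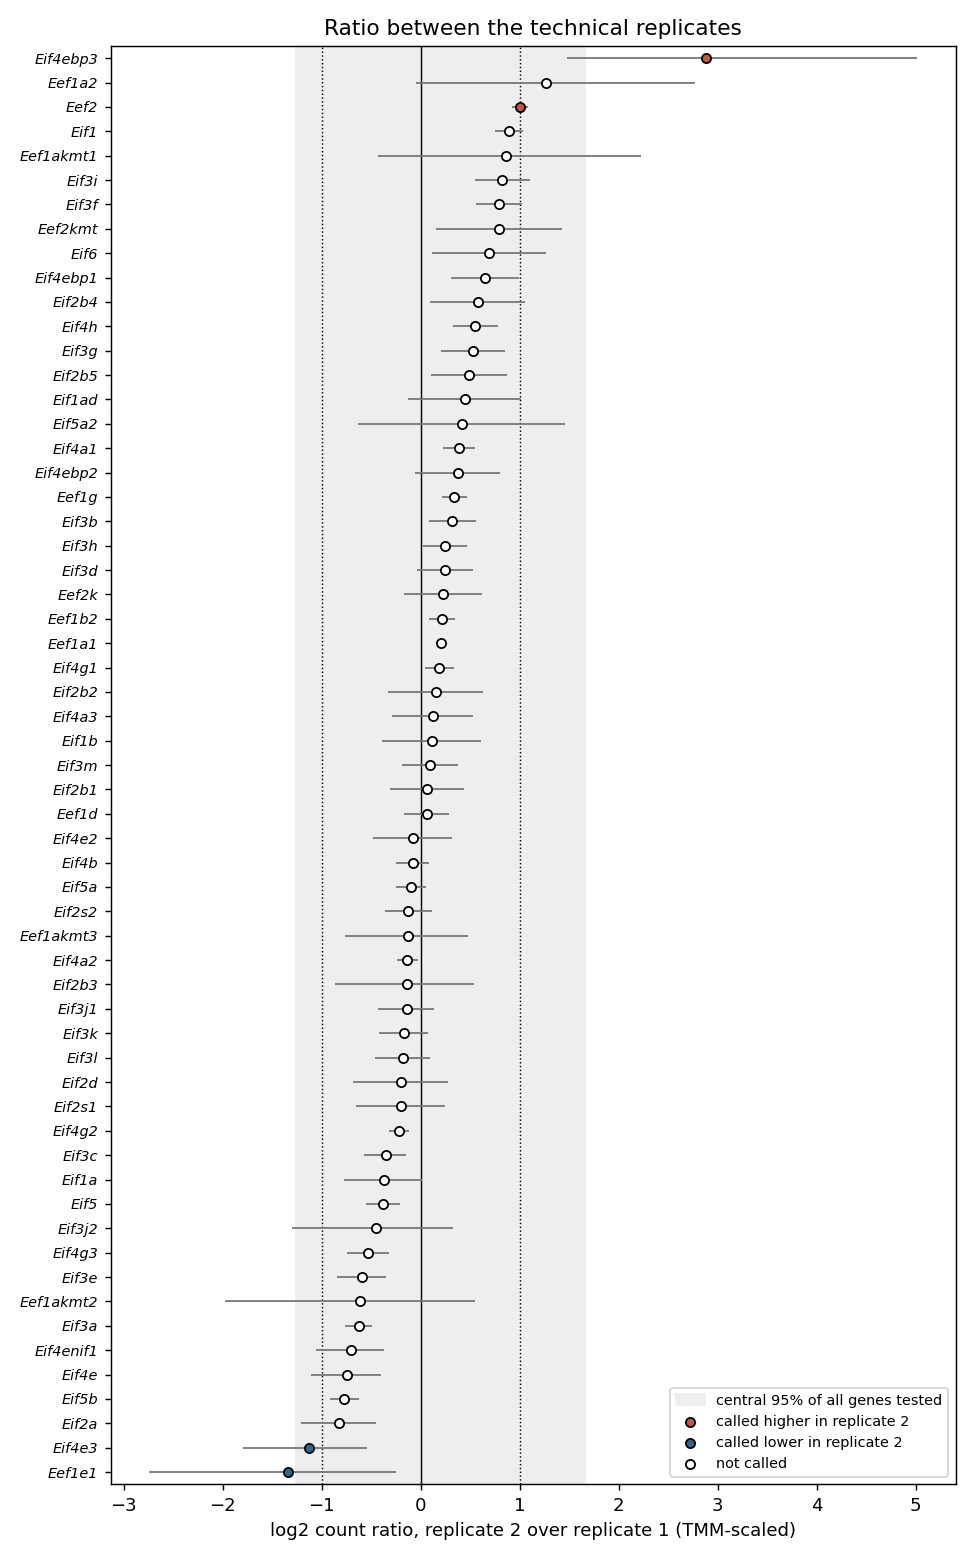
Log2 count ratio of replicate 2 over replicate 1 for the 59 tested genes, TMM-scaled, with exact 95% intervals (counting error only); filled circles are called genes, dotted lines mark the size threshold and the grey band holds the central 95% of all genes tested, from -1.26 to 1.66. Eif4ebp3 at 2.88 lies above the band and Eef1e1 at -1.34 below it, and the others lie inside.

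Of the 15 factor genes with the highest mean TPM, 1 was called (Eef2), 10 passed the adjusted p threshold with a smaller difference, and 4 did not pass it. The 4 were Eif5a (log2 ratio -0.10), Eif3k (-0.17), Eef1d (0.06) and Eif3h (0.25). Among genes of any level that passed, Eef1a1 had a log2 ratio of 0.20 (0.17 to 0.24) and Eef1b2 one of 0.22 (0.08 to 0.35). Eif1 reached 0.89 (0.75 to 1.04), Eif3i 0.83 (0.55 to 1.11) and Eif3f 0.79 (0.56 to 1.02). On the other side lay Eif5b at -0.77 (-0.92 to -0.63), Eif4e at -0.75 (-1.11 to -0.40), Eif3a at -0.62 (-0.76 to -0.49) and Eif3e at -0.59 (-0.84 to -0.35). These 9 genes passed the 0.05 threshold after adjustment in the exact binomial test. The 3 tested eIF4E genes all had negative values (median -0.75), and 4 of the 5 eIF2B genes had positive ones (median 0.16). Several of these values had intervals that included 0, among them Eif4e2 at -0.08 (-0.48 to 0.32), Eif2b1 at 0.07 (-0.31 to 0.44) and Eif2b2 at 0.16 (-0.33 to 0.64). Of all genes tested, 6269 lay above 0 and 6183 below. The 14 eIF3 genes split evenly, with 7 on each side of 0. With library totals 12 of the 59 genes lay above 0 and 47 below, so the sign of a small value depends on the scaling.

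The GC content of the transcripts moved with these differences. Of 18 factor genes under 45% GC, 15 had a negative log2 ratio (median -0.37), and among the 18 genes between 45% and 52% GC 7 did. Of 23 genes at 52% GC or more, 5 had a negative ratio (median 0.34). Eif4e (40.5% GC), Eif3e (40.3%) and Eif5b (42.9%) were among the first, and Eef2 (57.0%) among the last. After removal of the trend fitted over all tested nuclear genes, the medians of the 3 bins were -0.05, 0.11 and 0.09. The part of GC content in the ratio of any single gene was not tested.

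The level of a gene in TPM also rests on which transcripts its reads were assigned to, through the effective length. This length differed between the libraries by more than 0.5 on the log2 scale for 7 of the 59 genes (11.9%), against 11.2% of 12445 genes, and by less than 10% for 38. The 7 were Eef2k, Eif1, Eif2b2, Eif2b3, Eif2b5, Eif4g2 and Eif6. Over all tested genes the median log2 TPM ratio was -0.25 (0.5 TPM added), so values on this scale are read against that shift, and the median of the factor genes was -0.34. Eif6 had 57 counts in replicate 2 and 50 in replicate 1, but 6.80 and 14.3 TPM, at effective lengths of 1113 bases in replicate 2 and 401 bases in replicate 1. Eif2b5 had 116 and 117 counts, but 10.2 and 4.43 TPM, at effective lengths of 1503 and 3023 bases. Eif1 had a log2 ratio of 0.89 in counts and of 0.04 in TPM. For these genes the deposited TPM and the counts give different pictures of the same reads.

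**Figure D4:**
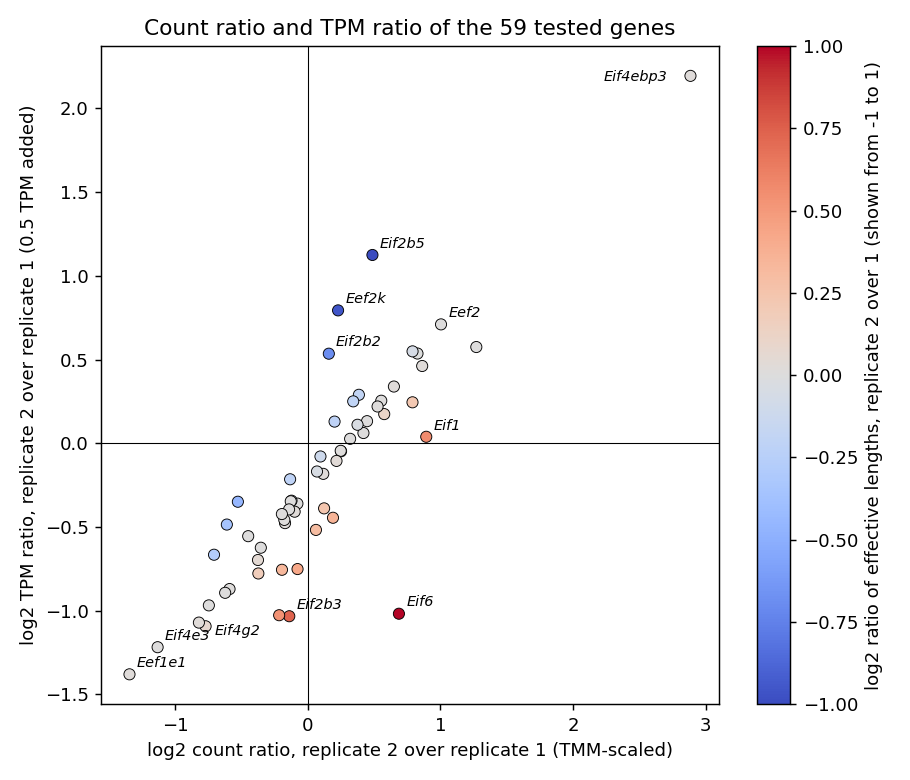
Log2 TPM ratio (0.5 TPM added) against log2 count ratio, both replicate 2 over replicate 1, for the 59 tested genes; colour is the log2 ratio of effective lengths, limited to the range from -1 to 1. Most genes follow 1 line, while Eif6 (count ratio 0.69, TPM ratio -1.02) lies far below it and Eif2b5 (0.49 and 1.12) and Eef2k (0.23 and 0.79) above it.

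Transcript assignment was compared for the 26 factor genes that averaged 100 counts or more and have several annotated transcripts. The transcript with the highest share of the gene's TPM was the same in both libraries for 15 genes and different for 11. The main transcript, taken by the mean share, held a median of 49.99% in replicate 2 and 72.1% in replicate 1, and the median size of the difference within a gene was 15.2 percentage points. For 6 genes it was under 5 points, among them Eif4a2, whose transcript Eif4a2-202 held 39.8% and 37.7%. Eif3j1-201 held 100% in both libraries, and Eif3i-201 held 95.9% and 99.1%.

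The 5 genes with the largest differences were Eif4enif1, Eif2b5, Eif5a, Eef2k and Eif4g3. Eif4enif1-202 held 19.4% of the gene's TPM in replicate 2 and 85.9% in replicate 1. Eif2b5-201 held 35.3% and 100%, and the rest in replicate 2 went to Eif2b5-202, which is shorter (821 bases, against 3186) and took 33.36 of the gene's 116 counts there and 0 of 117 in replicate 1. For Eif5a, the transcript Eif5a-213 held 20.2% and 77.1%, while Eif5a-210 held 50.6% and 22.0%; both are protein coding and close in length, 1281 and 1343 bases. Eef2k-201 held 28.7% and 74.7%, and Eif4g3-203 held 9.22% and 47.2%. In these 5 genes the main transcript had the lower share in replicate 2.

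**Figure D5:**
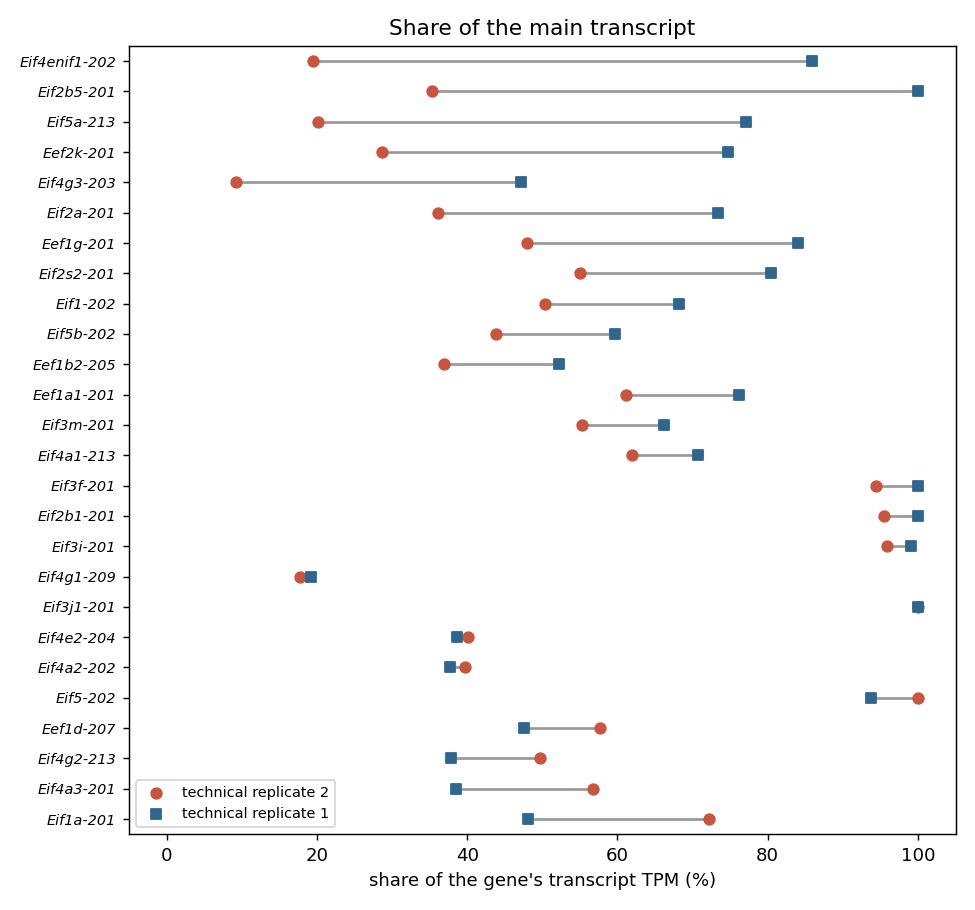
Share of the gene's transcript TPM held by the main transcript of 26 genes, in percent; circles are technical replicate 2 and squares technical replicate 1, and genes are ordered by the difference. The largest gap is that of Eif4enif1-202 (19.4% and 85.9%), and the largest in the other direction is that of Eif1a-201 (72.2% and 48.1%).

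Part of the TPM of abundant factors belonged to transcripts that the annotation does not mark as protein coding, such as short processed transcripts, retained introns and targets of nonsense-mediated decay. The median coding share of the 26 genes was 79.2% in replicate 2 and 92.4% in replicate 1, and 11 genes were above 90% in both. Eif1 had the lowest mean share. Its coding transcript Eif1-201 (1322 bases) held 46.2% and 23.8%, and the processed transcript Eif1-202 (383 bases) held 50.3% and 68.2%, although it took only 153.64 and 225.35 counts, against 717.02 and 412.94 for Eif1-201. The next lowest shares were those of Eif4g1 (36.3% and 56.7%), Eif5b (56.2% and 40.3%), Eef1b2 (57.5% and 41.1%) and Eif4a3 (56.8% and 51.3%). For Eif5b, the retained-intron transcript Eif5b-202 held 43.8% and 59.7%. For Eef1b2, the decay-annotated Eef1b2-205 held 36.9% and 52.3%. Eef1a1-201, the coding transcript of Eef1a1, held 61.1% and 76.2%, and with coding transcripts alone Eef1a1 had 802 TPM in replicate 2 and 917 TPM in replicate 1, still the highest of the factors.

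The neighbouring genes of the pathway were measured beside the factors. Of the eIF2 alpha kinases, Eif2ak3, which encodes PERK of the endoplasmic reticulum, had the highest level, at 10.3 TPM in replicate 2 and 14.5 TPM in replicate 1, and Eif2ak1, Eif2ak2 and Eif2ak4 lay between 1.72 and 2.72 TPM and between 1.52 and 5.41 TPM. Their downstream transcription factor Atf4 had 48.0 and 60.3 TPM. In this list of 12 genes 11 were tested, 1 was called higher, Chac1 (log2 ratio 1.24), and 0 lower, and the median log2 ratio was 0.14. Of the 14 genes for mTORC1 and MNK inputs, 0 were called in either direction, and the highest kinase gene was Mknk1, whose product phosphorylates eIF4E, at 42.5 and 56.3 TPM. Of 6 poly(A)-binding and 6 termination and recycling genes, 0 were called either. The genes that modify eIF5A and eEF2 had 8 tested members. Of these Dohh, which completes hypusine, was called higher (log2 ratio 2.04, 71 and 24 counts). Dph6, of the diphthamide pathway of eEF2, was called lower (-1.14, 17 and 54 counts). Of all genes tested, 8.69% were called higher and 3.76% lower, so call counts in lists this short say little about a list.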

How the data were processed

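Both libraries are polyadenylated RNA of 1 mouse pancreas, technical replicates of 1 biological sample per the labels. Per the deposited README files the tables use mm10 and GENCODE M4. The aligner and quantifier were not given in the sources used here. Each deposited table holds, per the file headers, an expected count (estimated, so not always whole) with its posterior mean and SD, an effective length, a TPM and an FPKM per gene or transcript. The deposited posterior mean TPM, entered as a signal, and the deposited FPKM served only as alternatives. Gene symbols were looked up in GENCODE M21 (GRCm38), where 42462 of 43346 gene identifiers matched. The genes, lists and tests were chosen with earlier results of these data known. The text gives values for the 15 most abundant genes, every gene of the main complexes, each called gene, and by isoform share the 5 genes with the largest difference and the 5 with the lowest coding share.

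Expected counts were rounded and scaled with TMM (edgeR 4.0.16, R 4.3.3). With 1 library a side edgeR's quasi-likelihood fit has no residual degrees of freedom, so genes averaging 10 counts or more were compared by a two-sided exact binomial test, adjusted by Benjamini-Hochberg over all of them, with 0.5 added to counts in ratios. The test was tried on simulated counts that held counting error only. That trial cannot show how the test behaves where libraries differ by more than counting error. Intervals are exact Clopper-Pearson intervals at 95%, a count of 0 was bounded at 3 counts, and both hold counting error only, since PCR copies are not independent molecules. Near-identical copies (95% identity over 90% of the copy, BLAST+ 2.17.0) were found for 13 genes and held at most 14 counts each. On the annotation, 13 genes overlap another gene with counts, 2 on the same strand (Eef1d with Naprt, Eef1akmt2 with Fgfr2) and 11 on the opposite strand, among them Eif2a with Serp1 and Eif5b with Rev1. The strand setting of the counting was not given in the sources used here. Alternatives used DESeq2 1.42.0 size factors, upper quartile factors, library totals, edgeR exact tests with dispersions of 0.01 and 0.1, and a GC and length trend (mgcv 1.9.3). Start regions came from a RefSeq table. The other steps ran in Python 3.11.15 (scipy 1.17.1, numpy 2.4.6, pandas 2.3.3), and plots in matplotlib 3.10.9.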

Additional observations from a re-analysis of the deposited data

How the results depend on the processing

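The count of factor genes called higher in replicate 2 was 2 as reported, 1 with library totals and with a minimum mean of 50 counts, and 0 with an edgeR exact test at a dispersion of 0.1. The count called lower was 2 as reported, 10 with library totals, 1 without a filter, with a minimum of 50 counts, with 5 added to counts and with an edgeR dispersion of 0.01, and 0 once the trend on GC and length was removed and at a dispersion of 0.1. After removal of the trend the 2 higher genes were Eif4ebp3 and Eif1. At a dispersion of 0.1 the edgeR test called 31 of all 12452 genes higher and 14 lower, against 1082 and 468 in the exact binomial test. DESeq2 size factors, upper quartile factors, posterior mean counts and added copies left both counts at 2. The cause of these changes was not tested. The share of TPM was 0.277%, with 0.261% on the posterior mean TPM, 0.507% without Gm42418, Gm26917, Lars2 and the mitochondrial genes with their nuclear copies, and 0.152% without Eef1a1 (chosen after seeing the data). It lay between 0.275% and 0.279% when either library was left out. The cytosine and 4 pyrimidines were found in 1 window at the annotated start and in 16 windows within 10 bases of it, which holds by construction. The other motifs, chosen after seeing the sequences, were found in 4 (TATAAA), 2 (TATATAA) and 18 (CCGGAAG) windows. Genes at the level threshold numbered 56 in both libraries, 57 in replicate 2 and 56 in replicate 1, 58 on the posterior mean TPM, 54 on FPKM and 39 at 5 TPM. Of 13 within-library ratios 9 were above 1 as reported, 10 in replicate 2 alone, and 9 in replicate 1 alone, on posterior means and on coding transcripts. The median main isoform share was 57.0%, between 49.99% and 72.1% in single libraries. The ratio of Eif4h to Eif4b was 0.856 as a mean and 1.04 in replicate 2 alone, so its order turned. With library totals the median log2 ratio of the factor genes was -0.46, against 0.10 with TMM. The 4 called genes kept their sign in every alternative run for them. No paired analysis was possible because the libraries form 1 group of technical replicates. With 1 sample, nothing here bears on variation between animals.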

Other observations

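Spread between the libraries fell with depth among the factor genes only up to a point. Over genes with a mean of 10 to 100 counts the SD of the log2 ratio was 0.93 for 19 factor genes and 0.90 for all genes. Between 100 and 300 counts it was 0.47 for 18 factor genes and 0.54 for all genes, and between 300 and 1000 counts 0.48 for 17 factor genes and 0.60 for all genes. At 1000 counts or more it was 0.61 for 5 factor genes and 0.98 for all genes.

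Across the 59 factor genes with counts, the log2 TPM of the libraries correlated with r = 0.94 and the ranks with rho = 0.94, a description across genes, which are not independent replicates. Of the aminoacyl-tRNA synthetase genes, which load the tRNAs that eEF1A carries, 20 of 20 reached 1 TPM in both libraries, between 4.40 and 28.4 TPM in replicate 2 and between 5.12 and 26.1 TPM in replicate 1. Qars was the highest, at 28.4 and 26.1 TPM. Vars was the 1 member called higher in replicate 2 (219 and 117 counts, log2 ratio 1.40), with 0 called lower. Of all genes tested, 8.69% were called higher and 3.76% lower. Among the poly(A)-binding genes, Pabpc4 had 57.2 and 59.1 TPM and Pabpc1 39.8 and 68.2 TPM. Duct markers summed to 22.7 and 21.3 TPM and macrophage markers to 90.4 and 93.4 TPM.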
